A study of Astatotilapia calliptera and Haplochromis burtoni and Pundamilia nyererei with 40 samples.

Results

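asz1, pld6, henmt1 and fkbp6 are 4 of the 26977 genes in the deposited gene table of Astatotilapia calliptera (AC), a haplochromine cichlid of the Lake Malawi radiation. They are the genes that carry these symbols in the gene-name column of that table, and each symbol has 1 identifier there. The study sequenced poly(A) RNA of cichlid fishes to follow transposable elements and the genes that silence them. The libraries used here came from ovaries (4) and testes (4) of AC, brains of AC females (3) and AC males (3), and testes of Maylandia zebra (MZ, 2) and Tropheops sp. 'mauve' (TM, 4). All fish were wild-type and untreated. AC and TM were raised in aquaria, while MZ were dominant adult males bred in captivity and bought from a supplier. Fish ages were not given in the sources used here. Replicates were matched for fish size and for the amount of organ taken. A sequencing company prepared the gonad libraries, while the AC brain libraries were made in the laboratory of the study, so that organ and library protocol cannot be told apart when gonads are set against brains.

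Piwi-interacting RNAs (piRNAs) are small RNAs that guide Piwi proteins to transcripts of transposable elements, mostly in germ cells. Long precursor transcripts are cut at the surface of mitochondria and in the granules next to them, the pieces are loaded into Piwi proteins, and the end of each piece is trimmed and methylated. The genes described here act at successive steps of this route. asz1 encodes a protein with ankyrin repeats that sits on the outer membrane of mitochondria and, in mouse, holds the piRNA machinery there. pld6 encodes a mitochondrial protein of the phospholipase D family, whose fly counterpart Zucchini cuts piRNA precursors. fkbp6 encodes a protein of the FKBP family (peptidyl-prolyl isomerases and their relatives) that in mouse works with the chaperone Hsp90 when piRNAs are loaded, and that is also found on meiotic chromosomes. henmt1 encodes the methyltransferase that modifies the end of mature piRNAs and so shields them from decay.

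In the RefSeq annotation of assembly fAstCal1.2, matched by symbol, asz1 (ENSACLG00000013100) is a protein-coding gene on chromosome 7, from 40083603 to 40117767. pld6 (ENSACLG00000007544) lies on chromosome 6, from 16834105 to 16839944. henmt1 (ENSACLG00000026501) lies on chromosome 17, from 10599769 to 10609317, and fkbp6 (ENSACLG00000006952) on chromosome 15, from 4762010 to 4767298. The annotation holds 6 transcripts of pld6, 4 of fkbp6 and 1 each of asz1 and henmt1. Only pld6 overlapped another annotated gene, an unnamed protein-coding locus, by 374 bases. The next gene began 54 bases from henmt1 and 292 bases from fkbp6.

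Counts assigned to genes lay between 18241046 and 22360362 per AC gonad library and between 6728130 and 19685495 per AC brain library. In the genome-mapped table of AC, MZ and TM gonads, counts of genes and transposable element families together lay between 20973400 and 26742599 per library. AC ovary replicate 1 stood apart: its scaling factor for composition (TMM, the trimmed mean of M values) was 0.544, against 0.947 to 1.12 in the other AC gonad libraries, and its 10 most abundant genes held 7.74% of its counts, against 3.22% to 5.83%. The testes carried testis markers. All 5 meiosis markers and all 5 markers of spermatids and sperm were higher in AC testes than in AC ovary. The 10 markers of the gonad soma were mixed, with 3 called higher in AC testes (amh, dmrt1 and star) and 4 lower. The 4 were cyp19a1a, the aromatase of the ovary (log2 fold change -9.52), hsd17b1 (-7.15), sox9a (-2.46) and inha (-1.58). The summed level of the 5 oocyte markers gdf9, bmp15, figla, zar1 and zar1l was nevertheless as high in AC testes (2307 to 3549 TPM) as in AC ovary (2325 to 3576 TPM), and none of the 5 was at 0 in any AC gonad library. gdf9 was called lower in AC testes (log2 fold change -0.81), and the other 4 were not called. TPM is the number of transcripts per 1000000, which allows for transcript length. These markers were also high in the testes of MZ and TM, at summed levels of 2096 to 3733 and 2635 to 3974 CPM, against 1796 to 3228 CPM in AC testes, where CPM is counts per 1000000 after TMM scaling. The testes libraries therefore held RNA that is normally typical of oocytes. How the levels of the processing factors ran beside these markers is given with the comparison of species, and no cause was tested.

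Whether the processing factors differ between ovary and testis was asked first. asz1 and pld6 were higher in AC testes, and henmt1 and fkbp6 were not called in either direction. Fewer cells of a type and less RNA per cell cannot be told apart in these libraries, which came from pieces of organs with mixed cells. asz1 had 7.64, 10.7, 21.4 and 18.8 TPM in AC ovary replicates 1 to 4 and 74.9, 66.8, 84.0 and 71.0 TPM in AC testes replicates 1 to 4. Each testes library thus lay far above every ovary library, with a mean of 74.2 ± 7.35 TPM (SD, n = 4) against 14.6 ± 6.50 TPM (SD, n = 4). The log2 fold change was 1.89 with a standard error (SE) of 0.44, at an adjusted p of 0.00548 by edgeR's quasi-likelihood test. That p, like each adjusted p below unless another tool is named, was corrected over all features tested (Benjamini-Hochberg).

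pld6 showed the same order at lower levels. It had 2.78, 3.88, 7.61 and 5.31 TPM in AC ovary replicates 1 to 4, and 41.0, 33.5, 55.0 and 38.2 TPM in AC testes replicates 1 to 4. No ovary library reached the lowest testes library, and the means were 4.89 ± 2.08 and 41.9 ± 9.25 TPM (SD, n = 4 each). The log2 fold change of pld6 was 2.43 (SE 0.38, adjusted p = 3.63e-04, edgeR). In TPM, asz1 and pld6 were ordered alike within each organ: replicates 3 and 4 were the highest ovary libraries for both genes, and replicate 3 the highest testes library. On the TMM-scaled counts of the fit, the highest ovary library was replicate 1 for pld6 (8.56 CPM) and replicate 3 for asz1 (43.4 CPM).

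henmt1 was high in both gonads. AC ovary held 145, 82.4, 147 and 146 TPM in replicates 1 to 4, and AC testes held 123, 111, 85.9 and 138 TPM. The ranges overlapped, with means of 130 ± 31.8 and 115 ± 22.0 TPM (SD, n = 4 each). Ovary replicate 2 and testes replicate 3 were the low libraries of their groups. The fitted log2 fold change of testes over ovary was -0.59 (SE 0.40, adjusted p = 0.284, edgeR), and it was -0.17 without AC ovary replicate 1.

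fkbp6 had 68.0, 79.1, 112 and 121 TPM in AC ovary replicates 1 to 4 and 108, 122, 92.9 and 129 TPM in AC testes replicates 1 to 4. Its libraries overlapped too, around means of 95.0 ± 25.4 and 113 ± 15.8 TPM (SD, n = 4 each). The sign of its difference depended on the scale. The fit on TMM-scaled counts gave a log2 fold change of -0.40 (SE 0.29, adjusted p = 0.315, edgeR), whereas limma on log2(TPM + 1) gave 0.27 (SE 0.22, adjusted p = 0.432), where the median over all genes was itself 0.25. On the scale of the fit, AC ovary replicate 1 was the highest of all gonad libraries for fkbp6, at 327 CPM, against 117, 194 and 186 CPM in ovary replicates 2 to 4 and 118 to 193 CPM in the testes. Without that library the fitted log2 fold change was -0.06.

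**Figure D1:**
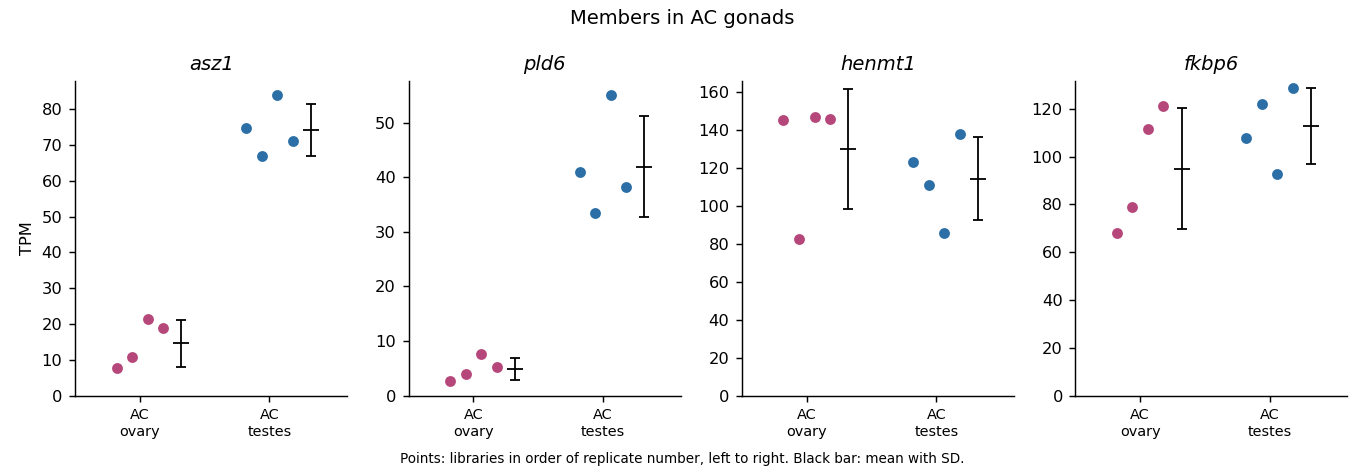
TPM (y axis, from 0) of each gene in the 4 AC ovary and 4 AC testes libraries; points are libraries and black bars the mean with its SD. asz1 and pld6 show no overlap between the organs, with means of 14.6 against 74.2 TPM and 4.89 against 41.9 TPM, while the libraries of henmt1 and fkbp6 overlap.

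In AC testes 2 of the 4 genes were therefore called higher and none lower, beside 30.4% of the 20893 genes tested called in either direction (16.2% higher and 14.2% lower). The median log2 fold change of the 4 was 0.74, against 0.02 over all genes tested. The calls of asz1 and pld6 held without any one of the 8 gonad libraries, with log2 fold changes of 1.68 to 2.03 and 2.23 to 2.66.

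The gaps in level between the genes differed between the organs. In TPM, the order within every AC ovary library was henmt1, fkbp6, asz1 and pld6, from high to low. In AC testes henmt1 and fkbp6 shared the first places, each leading in 2 of the 4 libraries, and asz1 and pld6 followed in that order in all 4. henmt1 was 30.1 ± 15.2 times the level of pld6 in ovary and 2.87 ± 0.91 times in testes (SD, n = 4 each). The ratio ran from 19.3 to 52.3 in ovary libraries and from 1.56 to 3.61 in testes libraries. fkbp6 was 6.99 ± 1.55 times the level of asz1 in ovary and 1.54 ± 0.34 times in testes. The ratio of asz1 to pld6 moved less, from 2.96 ± 0.38 to 1.80 ± 0.20. Among the genes with TPM above 0, henmt1 stood at percentile 95.0 in ovary and 94.0 in testes, and fkbp6 at 92.7 and 93.9. asz1 stood at percentile 65.7 in ovary and 89.8 in testes, and pld6 at 51.3 and 81.3.

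The germ cell gene ddx4 (the helicase Vasa) also rose in AC testes, with a log2 fold change of 1.08 (SE 0.24, adjusted p = 0.00457, edgeR). Per unit of ddx4, in TPM over TPM, asz1 was 0.183 ± 0.0136 in ovary and 0.363 ± 0.0722 in testes (SD, n = 4 each). pld6 was 0.0625 ± 0.0080 in ovary and 0.206 ± 0.0657 in testes. henmt1 went the other way, from 1.86 ± 0.926 in ovary to 0.548 ± 0.0526 in testes, and fkbp6 from 1.27 ± 0.196 to 0.544 ± 0.0619. These ratios are a description and were not tested. Per unit of ddx4 the ranges of ovary and testes libraries did not overlap for any of the 4 genes, and the same held per unit of piwil2. Per unit of dazl, a germ cell RNA-binding protein that was not called between the organs, asz1 and pld6 again had no overlap (0.0916 ± 0.0264 against 0.380 ± 0.0747 for asz1 and 0.0310 ± 0.0091 against 0.215 ± 0.0647 for pld6). henmt1 (0.911 ± 0.449 in ovary and 0.575 ± 0.0786 in testes) and fkbp6 (0.617 ± 0.113 and 0.570 ± 0.0821) overlapped on that measure, so that their lower ratio in testes depended on the germ cell gene chosen.

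Of a list of 26 other piRNA pathway symbols, 14 were found in the AC table, as 17 genes. In AC testes against AC ovary 15 of these could be tested, 7 were called higher and none lower, and the median log2 fold change was 1.18. Over all genes tested, 16.2% were called higher and 14.2% lower, and the median was 0.02. tdrd6, a Tudor domain protein of germ granules, rose by 2.24, and rnf17, another Tudor domain protein, by 1.35. piwil2, a Piwi protein, rose by 1.05 and tdrd1, which binds Piwi proteins, by 0.73. tdrd7a rose by 1.45, and 1 of the 3 tested copies of piwil1 rose by 2.04. The copies of piwil1 are paralogs and are reported as uncertain, since how the counting divided reads between them was not measured. Not called were the piwil1 copies at 0.72 and 2.70, tdrkh at 1.54, tdrd7b at 1.56, tdrd9 at 0.99, gpat2 at 1.18, prmt5 at 0.52 and WDR77 at 0.21, all log2 fold changes of testes over ovary. The count of 7 became 5 to 10 when 1 gonad library was left out, with 8 without AC ovary replicate 1 and 10 without AC ovary replicate 4. asz1 and pld6 lay within or near the top of this range, and henmt1 and fkbp6 below its lowest value.

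**Figure D2:**
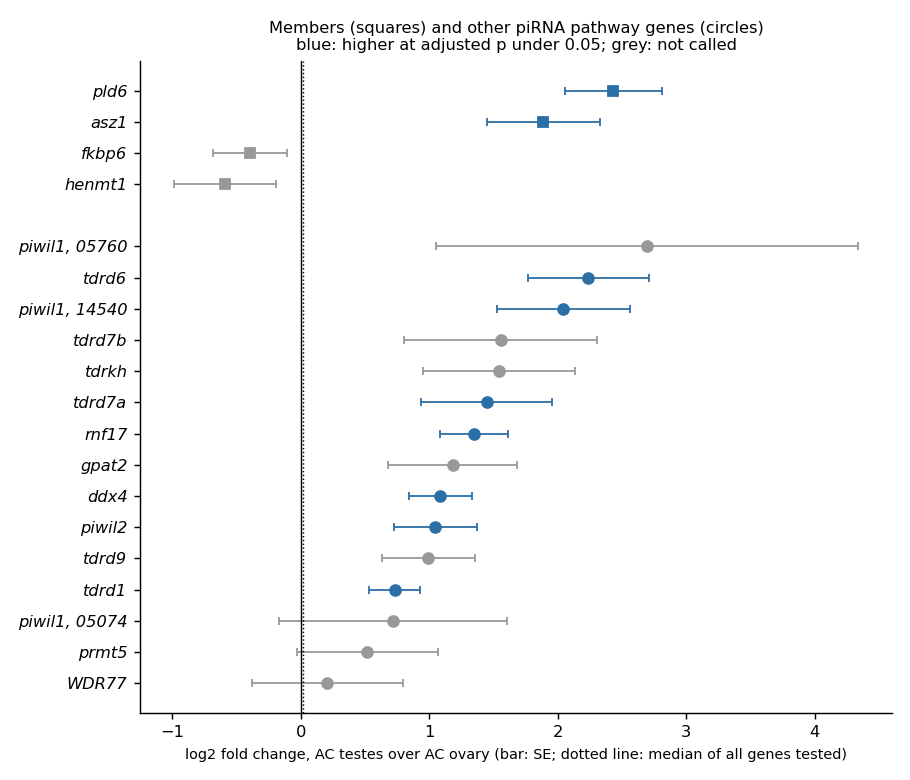
Log2 fold change of AC testes over AC ovary (x axis) with its SE for the 4 processing factors (squares) and the 15 other piRNA pathway genes that could be tested (circles); blue marks genes called higher and grey genes not called. pld6 (2.43) and asz1 (1.89) lie far to the right and fkbp6 (-0.40) and henmt1 (-0.59) to the left of 0, and no pathway gene in the plot was called lower.

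The family members of fkbp6 and pld6 and other genes of the mitochondrial surface were read for comparison, with no test of the lists. Beside them, 16.2% of all genes tested were called higher in AC testes than in AC ovary and 14.2% lower. Of 16 other FKBP genes, 1 was called higher in AC testes than in AC ovary, fkbp1b at a log2 fold change of 1.81, and 3 lower, with fkbp10b the lowest at -2.46. Their median was -0.47, against 0.02 over all genes tested. Of 5 other phospholipase D genes, pld7 alone was called higher, at 2.90, and pld3 had the lowest value, -0.75 (not called). Of 17 genes of the mitochondrial outer membrane and of mitochondrial fusion, where ASZ1 and PLD6 proteins reside, 1 was called higher and 2 lower. A copy of tomm20a was the highest at 2.09 and vdac1 the lowest at -1.05, and the median was 0.08.

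The level of pld6 in ovary also depended on how reads were counted. The AC gonad libraries were counted both by salmon, on transcripts, and by TEtranscripts, on the genome. For asz1 and fkbp6 the count from TEtranscripts was 0.994 to 1.03 times the salmon count in all 8 libraries. For pld6 the salmon counts were 85, 79, 159 and 103 in AC ovary replicates 1 to 4, and the TEtranscripts counts were 87, 273, 400 and 294. The ratio was thus 1.02 in ovary replicate 1 but 2.52 to 3.46 in replicates 2 to 4. In AC testes it lay between 1.28 and 1.39 in all 4 libraries. henmt1 had a ratio of 1.33 in ovary replicate 1 and 1.04 to 1.09 in the other 7 libraries. On the TEtranscripts counts the log2 fold change of pld6 was 1.82 (SE 0.34, adjusted p = 0.00548, edgeR), which is smaller than the 2.43 on salmon counts and still called. The TEtranscripts fit held the AC ovary and testes libraries alone, and the salmon fit all 14 AC libraries, so that counting and fit both differ here. The TPM levels and percentiles of pld6, and its ratios to other genes and to brain, all rest on salmon. In ovary they share this dependence on the counting. Whether the locus that overlaps pld6 plays a part was not tested.

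**Figure D3:**
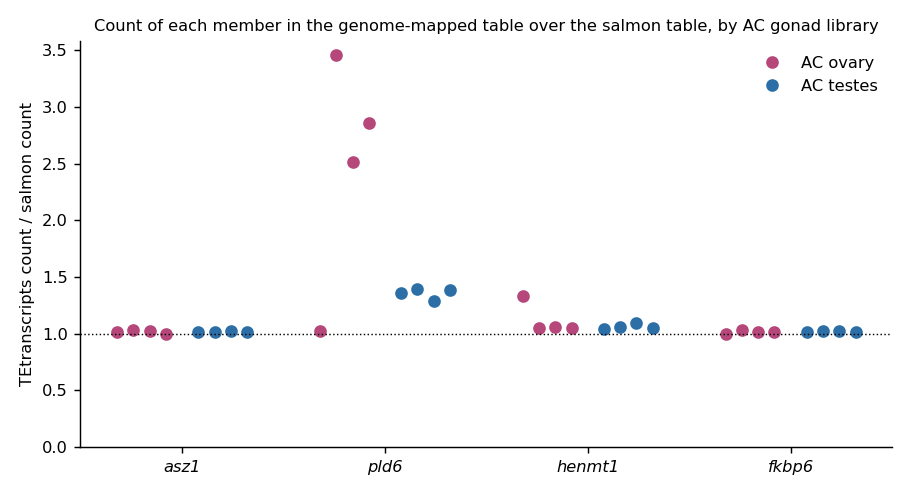
Count of each gene in the TEtranscripts table divided by its count in the salmon table (y axis, from 0), for the 4 AC ovary and 4 AC testes libraries; the dotted line marks equal counts. For pld6, 3 ovary libraries lie between 2.52 and 3.46 and the testes between 1.28 and 1.39, while asz1 and fkbp6 stay close to 1.

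In AC brain all 4 genes were near or below 1 TPM except pld6 in males. asz1 had 0.159, 0 and 0.0652 TPM in female brain replicates 1 to 3 and 0.380, 0.197 and 0 TPM in male brain replicates 1 to 3. These levels rest on 3 counts in all female libraries together and 8 in all male libraries. henmt1 had no count in the 3 female brain libraries, and 0, 0.588 and 0.308 TPM in the male ones, from 6 counts in all. fkbp6 had 0.344, 0.651 and 0.406 TPM in female brain and 0.329, 0.277 and 0.396 TPM in male brain. pld6 had 0.521, 0.984 and 0.586 TPM in female brain and 1.25, 2.30 and 1.65 TPM in male brain. In TPM it was the highest of the 4 in each of the 6 brain libraries, although it was the lowest of the 4 in each gonad library. In female brain replicates 1 to 3, however, pld6 and fkbp6 had the same counts (12, 8 and 6). pld6 thus stood above fkbp6 there only after the allowance for transcript length. The oocyte markers gave 6.21 to 9.75 TPM in sum in the brains, of which gdf9 held most, and the neuron markers 5500 to 6953 TPM.

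All 4 genes were called higher in AC ovary than in AC female brain, where 67.7% of the genes tested were called (32.4% higher and 35.4% lower). All 4 were also called higher in AC testes than in AC male brain, where 65% of genes were called (32.5% in each direction). asz1 and henmt1, with 0 to 5 counts per brain library, passed the low-count filter only through the gonads. A call of either gene against brain could therefore only be higher, and its direction is no independent support. Set against the brain by summed counts per 1000000, asz1 was 341 times higher in ovary, with a 95% counting interval of 117 to 1653 because of its 3 brain counts, and 505 times higher in testes (256 to 1171). fkbp6 was 224 times higher in ovary (153 to 343) and 251 times in testes (162 to 410). henmt1 was at least 1101-fold higher in ovary, at the 95% Poisson upper limit of its 0 counts in female brain. With the female brains set at a floor of 3 counts over the group, the ratio was 1354. In testes henmt1 was 523 times higher (240 to 1424). pld6 differed least, at 6.93 times in ovary (4.73 to 10.6) and 15.7 times in testes (12.4 to 20.2). Reads carried no molecular identifiers, so these intervals and the floor cover counting error only. The log2 fold changes of edgeR were 8.59 for asz1, 3.02 for pld6 and 8.10 for fkbp6 in ovary, with adjusted p between 6.45e-09 and 4.91e-05, and 8.81, 4.01 and 8.05 in testes, with 9.04 for henmt1. In pathway genes the counts were 11 higher and 2 lower of 15 in ovary against female brain, and 12 higher and 1 lower in testes against male brain. tdrd7b was called lower in ovary and in testes (log2 fold changes -3.37 and -1.88), and tdrkh lower in ovary (-1.58), while tdrkh was not called in testes (-0.07). The call of tdrd7b in testes (adjusted p = 0.0468, edgeR) was lost without any one of the 7 libraries, with total counts, with no low-count filter and under the replicate block. Of the 2 genes called lower in ovary, 1 was left without any one of the 3 female brain libraries, without AC ovary replicate 2 or with these groups alone. The median over the 4 processing factors was 8.35 in ovary and 8.43 in testes, against -0.07 and 0.03 over all genes tested.

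**Figure D4:**
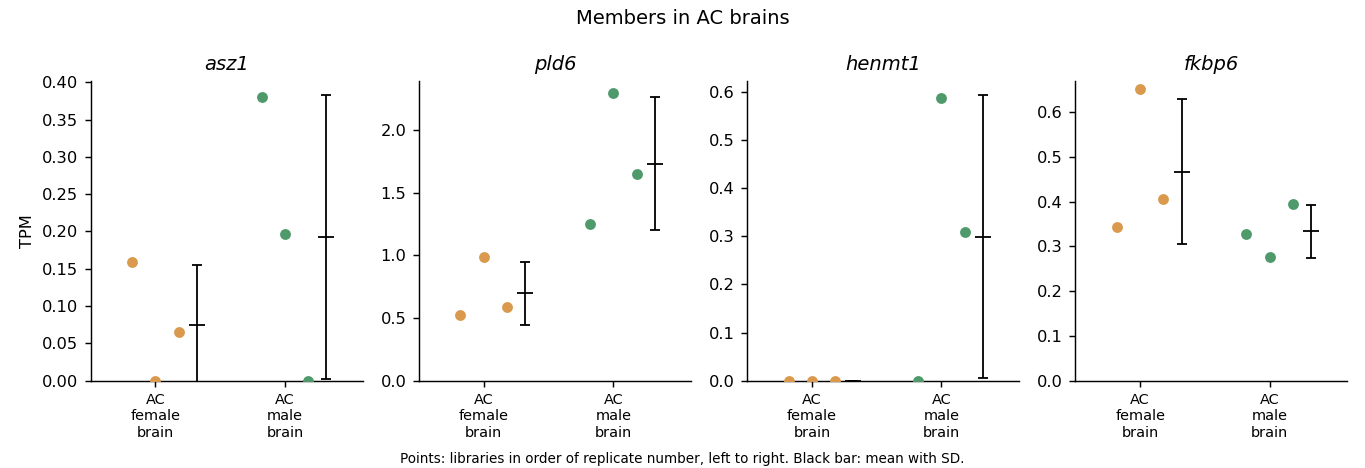
TPM (y axis, from 0, with its own range in each panel) of each gene in 3 AC female and 3 AC male brain libraries, with the mean and SD. pld6 reaches 1.25 to 2.30 TPM in males and 0.521 to 0.984 TPM in females, and no other gene exceeds 0.651 TPM.

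Between male and female brain none of the 4 genes was called, nor was any other of the 20893 genes tested (0% called by edgeR). At an unadjusted p under 0.05 there were 564 genes, and DESeq2 called 10 and limma 5 on log2(TPM + 1) and 8 on log2(TPM + 0.1). pld6 was higher in every male library than in every female one, with a log2 fold change of 1.44 (SE 0.47, adjusted p = 1, edgeR). henmt1 had counts in 2 of 3 male libraries and no female one (4.65, adjusted p = 1), and asz1 and fkbp6 had log2 values of 1.67 and -0.35. Whether the sex difference in gonads departs from that in brain was tested as an interaction, in which 12.4% of genes were called (7.63% higher and 4.78% lower) and none of the 4. The log2 difference was -5.24 for henmt1 (adjusted p = 0.0701, or -5.44 and adjusted p = 0.0357 without AC ovary replicate 2), 0.99 for pld6 (adjusted p = 0.296), 0.21 for asz1 (adjusted p = 0.970) and -0.05 for fkbp6 (adjusted p = 0.993, all edgeR).

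A single fit over 10 testes libraries, all counted on the AC genome, set AC, MZ and TM against each other. None of the 4 genes was called in any pair of species, while 18.7% of the 20186 genes tested were called between TM and AC (8.75% higher and 9.97% lower in TM), 8.71% between MZ and AC (4.94% higher and 3.77% lower in MZ) and 10.1% between TM and MZ (3.8% higher and 6.35% lower in TM). asz1 had 109, 105, 115 and 112 CPM in AC testes replicates 1 to 4, 108 and 146 CPM in MZ testes replicates 1 and 2, and 106, 91.7, 97.8 and 116 CPM in TM testes replicates 1 to 4. The AC libraries lay close together and within the range of the TM libraries, and MZ replicate 2 was above all others. Its log2 differences were -0.11 for TM against AC (SE 0.14) and 0.20 for MZ against AC (SE 0.17).

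pld6 had 37.5, 34.1, 45.0 and 39.5 CPM in AC, 26.9 and 64.9 CPM in MZ, and 38.5, 29.7, 36.4 and 26.5 CPM in TM. The MZ libraries were the lowest but 1 and the highest of the 10. The log2 difference of TM against MZ, -0.48 (SE 0.29, adjusted p = 0.319, edgeR), became -0.97 and was called (adjusted p = 0.0173) without MZ replicate 1, and turned to 0.29 without MZ replicate 2. With 2 MZ libraries, the comparison of pld6 with MZ rests on which of them is used.

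henmt1 had 93.9, 92.6, 62.7 and 111 CPM in AC, 122 and 112 CPM in MZ, and 100, 116, 89.0 and 144 CPM in TM. fkbp6 had 126, 156, 104 and 167 CPM in AC, 181 and 152 CPM in MZ, and 178, 180, 164 and 230 CPM in TM. For both genes AC had the lowest mean and the lowest library, and the species overlapped. The largest difference from AC was that of fkbp6 in TM, at a log2 value of 0.44 (SE 0.18), with an unadjusted p of 0.0302 and an adjusted p of 0.108 (edgeR). In order of mean, asz1 and pld6 ran from MZ through AC to TM, henmt1 from MZ through TM to AC, and fkbp6 from TM through MZ to AC, and all neighbours in these orders overlapped. The mapping of MZ and TM reads to the AC genome could lower their counts, which was not tested.

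**Figure D5:**
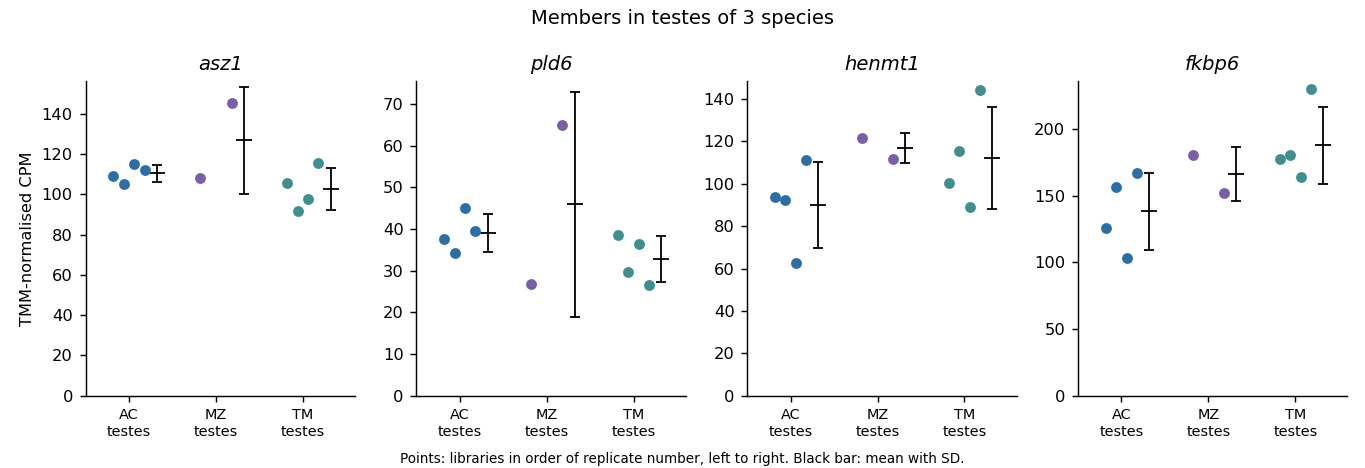
TMM-scaled CPM (y axis, from 0) of each gene in testes of AC (4 libraries), MZ (2) and TM (4), with the mean and SD. The species overlap for all 4 genes, and the 2 MZ libraries lie far apart for pld6 (26.9 and 64.9 CPM).

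Of the 16 other piRNA pathway genes tested between testes, 1 copy of piwil1 was called higher (2.96 on the log2 scale) and tdrd9, a helicase with a Tudor domain, lower (-0.75) in TM than in AC. gpat2, a mitochondrial acyltransferase, was called lower in MZ than in AC (-0.90) and higher in TM than in MZ (0.89). Both of these calls were lost without MZ replicate 2 and under the replicate block, the first also with AC and MZ alone and the second without TM replicate 2. No other gene of the list was called, and the medians lay between -0.09 and -0.01, against -0.01 to 0.0012 over all genes tested.

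Across the 10 testes libraries fkbp6, henmt1 and pld6 varied with the oocyte markers, and asz1 passed with neither marker list tried. This relation was noticed in the same libraries before it was computed, and the oocyte and meiosis markers were picked for it then, so that the p-values describe these libraries and are no independent support. No other marker list was tried, so the relation is not shown to be particular to these markers. It was computed over 8 pairs of a gene and a marker list, on log2(CPM + 1), with permutation tests of 100000 resamples (two-sided). fkbp6 rose with the summed oocyte markers (Pearson's r = 0.87, permutation p = 0.00152, adjusted p = 0.0122; Spearman's rho = 0.90, p = 8.80e-04, adjusted p = 0.00488). henmt1 did so too (r = 0.78, permutation p = 0.00976, adjusted p = 0.0195; rho = 0.72, p = 0.0229, adjusted p = 0.0610), though by rank it missed the threshold after adjustment. pld6 fell with the oocyte markers (r = -0.83, permutation p = 0.00308, adjusted p = 0.0123; rho = -0.88, p = 0.00122, adjusted p = 0.00488). It rose with the summed meiosis markers (r = 0.77, permutation p = 0.00704, adjusted p = 0.0188; rho = 0.68, p = 0.0343, adjusted p = 0.0621), again not by rank after adjustment. Without the 2 libraries farthest from the median of the markers, r was 0.84 for fkbp6, 0.85 for henmt1 and -0.82 for pld6 with the oocyte markers, and fell to 0.49 for pld6 with the meiosis markers. With each species centred on its own mean, r was 0.91, 0.80, -0.83 and 0.90 in the same order. asz1 did not pass (r = 0.44 and -0.43, permutation adjusted p = 0.215 and 0.245), nor did henmt1 and fkbp6 with the meiosis markers (r = -0.49 and -0.48, both adjusted p = 0.198). By rank, fkbp6 with the meiosis markers had rho = -0.67 (permutation p = 0.0388, adjusted p = 0.0621). henmt1 had rho = -0.55 there (adjusted p = 0.140), and asz1 0.30 and -0.27 (both adjusted p = 0.448). Without the 2 farthest libraries, r with the meiosis markers was -0.72 for henmt1, -0.58 for fkbp6 and 0.087 for asz1. With species centred it was -0.57, -0.69 and 0.67 in that order. For asz1 with the oocyte markers these values were 0.22 and -0.42.

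MZ shows this in values: replicate 1, with 317 CPM of meiosis markers and 3733 CPM of oocyte markers, had the lower pld6 and the higher fkbp6 and henmt1 of the MZ pair, and replicate 2, with 1760 and 2096 CPM, the reverse. In AC testes, replicate 3 had the most meiosis marker RNA (1341 CPM), the least oocyte marker RNA (1796 CPM), the highest pld6 and asz1, and the lowest henmt1 and fkbp6. The summed germ cell markers, whose relation to the genes was not computed, were also lowest in AC testes replicate 3 (623 CPM). They were higher in MZ replicate 1 (1199 CPM) than in MZ replicate 2 (1030 CPM). Genes and markers were read in the same libraries, and proportions within a library constrain each other.

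Over the 14 AC libraries, the genes closest in pattern were ranked by Pearson's r of log2(TPM + 1) among 15629 named genes, as a description that mostly follows the gap between gonads and brain. For asz1 these were exosc10, rnf17 and ANPEP (r = 0.99 each), and for pld6 dmrt1 (0.99), a testis transcription factor, ckap2l and si:ch211-15b10.6 (0.98 each). For henmt1 they were kpna7, an importin of oocytes in mammals, zp3f.1, an egg coat gene, and gtf3ab, and for fkbp6 sh3d19, pgpep1 and gtf2a1l (r = 1.00 each). zp3f.1 had a mean of 4178 TPM in AC ovary and 3674 TPM in AC testes. r does not weigh the size of a gap. exosc10 had means of 45.0 TPM in ovary, 65.6 in testes, 21.8 in female brain and 23.4 in male brain. Many genes were nearly as close: r was above 0.95 for 355 genes with asz1, 63 with pld6, 1167 with henmt1 and 1270 with fkbp6. With a pseudocount of 0.1 in place of 1, none of the 3 closest genes was shared for asz1, pld6 and henmt1, and 1 for fkbp6. Between the processing factors themselves, r over the 8 gonad libraries was 0.99 for asz1 and pld6 and 0.32 for henmt1 and fkbp6, while over all 14 it was 0.94 and 0.99. The gonad value of asz1 and pld6 includes their gap between ovary and testes, which henmt1 and fkbp6 lack.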

How the data were processed

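mRNA of weighed pieces of frozen organs was sequenced as directional, paired-end libraries. For the AC gene table the authors trimmed reads with Trimmomatic 0.39 and deposited expected counts from salmon 1.5.1, with a companion deposited score per gene that is named length-scaled TPM and sums to 1000000 per library after 382 repeated entries were dropped. For the gonad table the authors deposited raw counts of genes and 557 transposable element families, from STAR 2.5.4b on the AC genome (150 matches allowed per read) and TEtranscripts with strand. Here expected counts were rounded and fitted with edgeR 4.0.16 (R 4.3.3; filterByExpr, TMM, robust quasi-likelihood, no block) over 14 AC libraries, and raw counts over 10 testes libraries. A gene was called at an adjusted p under 0.05, over all features tested. limma 3.58.1 and DESeq2 1.42.0 served as alternatives, with other scalings, no filter, a replicate block, the compared groups alone, both TEtranscripts tables and each library left out. The tests were first run on simulated counts in which few genes changed, equally in both directions. That simulation does not cover contrasts in which a large share of genes was called. Replicate numbers were not used to pair samples in the main fits. Correlations of same-numbered deviations lay between -0.23 and 0.32, and no comparison had all above 0.1. In AC ovary against female brain (r = 0.013 to 0.071) and AC testes against male brain (r = 0.054 to 0.11) each same-numbered brain library was nevertheless the best match. Whether the same fish gave gonad and brain was not tested. All replicates differed by more than counting error (lowest chi-square per degree of freedom 6.87 over 31 pairs).

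The genes and lists were chosen with earlier results of these data known. By rule the text names the 4 genes, all other pathway genes with a direction, the highest and lowest gene of each family list and the 3 most alike genes. Intervals are exact Poisson (95%). Normalised log2 (rlog) tables and tables of other species, whose identifiers are not paired with names, were not used here.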

Additional observations from a re-analysis of the deposited data

Results flagged for a closer look

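1 value of the processing factors stood apart from the rest of its group of 4 libraries. henmt1 had 82.4 TPM in AC ovary replicate 2, against 145 to 147 TPM in the other ovary libraries, so that the gap to the next library took up 0.978 of the group's range, above the critical value of Dixon's test for 4 samples. Chance alone would mark about 1 in 20 of the 12 groups looked at. Without that library the log2 fold change of henmt1 in AC testes over AC ovary was -0.83, still not called by edgeR, against -0.59 with it. On TMM-scaled counts AC ovary replicate 1 was the library farthest from the rest instead, at 253 CPM against 67.3 CPM in replicate 2.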

How the results depend on the processing

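The calls of asz1 and pld6 in AC testes over AC ovary, and of all 4 genes in gonads over brains, held under every alternative run. In AC testes over AC ovary, fkbp6 turned to 0.27 and 0.28 with limma on log2(TPM + 1) and log2(TPM + 0.1). In the interaction with the brain, fkbp6 turned to 0.29 with total counts, and 0.41 and 0.63 in the limma fits. henmt1 passed the threshold there with total counts (-4.96) and DESeq2 (-4.20) and without AC ovary replicate 2 (-5.44). asz1 and pld6 passed it with limma on log2(TPM + 1) (both 2.23). The cause was not tested. Over all settings the interaction value of henmt1 ran from -5.70 to -0.52. Its brain part rests on 0 counts in the female and 6 counts in the male brain libraries together. Leaving out 1 library gave the interaction ranges -0.62 to 1.26 for asz1, -5.70 to -4.70 for henmt1, 0.71 to 1.23 for pld6 and -0.31 to 0.25 for fkbp6. It gave -0.030 to 0.38 for asz1 and -0.54 to 0.72 for pld6 in MZ against AC, and -0.20 to 0.027 for henmt1 and -0.97 to 0.29 for pld6 in TM against MZ. The replicate block left asz1 at 1.94 and pld6 at 2.44 in testes over ovary and changed no call of the 4 genes, but cut the genes called in MZ against AC from 1759 to 607 and in TM against MZ from 2048 to 836.

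Genes called in AC testes over AC ovary were 6354, against 3722 with these groups alone and 4118 and 4110 in the curated and uncurated TEtranscripts tables. The share called higher moved from 53.4% to 66.5% with total counts and to 78.9% with limma on log2(TPM + 1), where the median of all genes was 0.22 and 0.25. With limma on log2(TPM + 1) it moved from 47.8% to 35.2% in AC ovary over female brain and from 61.5% to 84.6% in the interaction, where 1726 genes were called in place of 2594. With total counts it moved from 46.7% to 31.2% in TM against AC and from 37.5% to 25.4% in TM against MZ. Leaving out 1 library, the genes called ran from 4484 to 7303 in AC testes over AC ovary, 1617 to 4105 in the interaction, 2462 to 3252 in TM against AC, 1125 to 2575 in MZ against AC and 1124 to 3920 in TM against MZ. In MZ against AC 600 were called with these groups alone and 2902 by DESeq2, and 3275 by DESeq2 in TM against MZ. Brain levels rest on 0 to 34 counts per library.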
